A study of Mus musculus with 4 samples.

Results

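Vip and Cnr1 interneurons of the mouse hippocampus were examined in single-nucleus RNA counts. The nuclei were chosen by their own counts of molecules, read as unique molecular identifiers (UMIs): at least 2 summed UMIs of Gad1, Gad2 and Slc32a1, and at least 1 Vip UMI or at least 3 Cnr1 UMIs. Nuclei with 3 or more Sst UMIs, any Pvalb UMI, or 2 or more summed UMIs of Lamp5, Ndnf, Hapln1 and Sema3c were left out. The rule found 232 members among 19475 kept nuclei, which are barcodes showing 200 genes or more and no more than 5% of their UMIs from mitochondria. The WT library gave 62 members of 5505 kept nuclei, EKO 55 of 5460, P301S 64 of 2934 and P301S/EKO 51 of 5576. Each library came from pooled frozen hippocampi of B6 mice aged 9 months, with 7 hippocampi of the WT genotype, 7 of EKO, 8 of P301S and 7 of P301S/EKO. The series names 6 genotypes, of which these 4 were analysed here. EKO is read here as loss of the apolipoprotein E gene Apoe, P301S is a mutation of the tau protein that such mice carry as a transgene, and P301S/EKO carries both. The labels give neither the knockout allele nor the promoter of the transgene. There is 1 library per genotype and no label that ties a nucleus to a mouse, so genotype and library cannot be told apart and no test between genotypes was possible. Values below are levels with exact 95% Poisson intervals, or ratios with exact 95% conditional binomial intervals, and both cover counting error only.

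As background, interneurons release GABA, which Gad1 and Gad2 synthesise and Slc32a1 loads into vesicles. Interneurons born in the caudal ganglionic eminence include cells that release the vasoactive intestinal peptide Vip, many of which contact other interneurons, and basket cells that hold the peptide cholecystokinin Cck and carry the cannabinoid receptor Cnr1 on their terminals. The receptor mutes GABA release when pyramidal cells send back endocannabinoids. The apolipoprotein E protein carries lipid and is made mostly by astrocytes and, in disease, by microglia.

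The peptides that name these cells are encoded by Vip (chr10:5639218-5647617, plus strand) and Cck (chr9:121489824-121495694, minus strand), and the receptor by Cnr1 (chr4:33924593-33948831, plus strand), all on GRCm38. The 250 bases before the RefSeq start of Vip (chr10:5638968-5639217) and of Cck (chr9:121495695-121495944, minus strand) are shown because both hold the letters TGACG, the core of the cyclic AMP response element; capitals mark the match, which reads CGTCA where it lies on the opposite strand. The build is GRCm38.p6.
Vip: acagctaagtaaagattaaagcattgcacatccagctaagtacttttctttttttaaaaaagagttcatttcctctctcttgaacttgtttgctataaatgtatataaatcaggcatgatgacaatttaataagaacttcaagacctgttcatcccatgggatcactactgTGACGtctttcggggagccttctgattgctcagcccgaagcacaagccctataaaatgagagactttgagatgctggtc
Cck: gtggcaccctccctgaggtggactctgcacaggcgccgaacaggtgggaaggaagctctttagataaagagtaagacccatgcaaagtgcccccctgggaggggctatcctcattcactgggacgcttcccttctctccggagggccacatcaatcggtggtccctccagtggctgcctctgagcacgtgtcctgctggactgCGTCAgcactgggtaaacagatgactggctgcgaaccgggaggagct
The match began 79 bases before the start in Vip and 47 bases before it in Cck. Cck is not a gene of the rule. Of the genes other than Vip by which the rule takes nuclei in, Gad2 held 1 match, 33 bases before its start. Gad1, Slc32a1 and the 3 windows of Cnr1 held none. The genes by which the rule leaves nuclei out, such as Sst, were not looked at, and neither was Penk. The windows of Npy and Tac2 held none either, and of all 32851 windows of the same length 17.8% held the letters on either strand. A match is a description of the sequence.

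The libraries held 8369762 to 14251675 UMIs, and the median kept nucleus held 1446.5 to 2172. The median member held 2037 UMIs in WT and 1719 in EKO, and 2722.5 in P301S and 1770 in P301S/EKO, and all members of a library together held 157007, 101741, 209355 and 97900 UMIs in the same order. Apoe was counted 161 times in members of WT and 1070 times in P301S, but 2 times in EKO and 1 time in P301S/EKO. Each pair of libraries shared between 14 and 52 kept barcodes, and no shared barcode was a member in both. Transcripts of other cell types occurred in members of every library, and members holding at least 3 UMIs of excitatory markers or of 1 glial, vascular or choroid plexus list numbered 29 in WT and 11 in EKO, and 47 in P301S and 21 in P301S/EKO. They are called mixed members below. At least 3 UMIs of the choroid plexus gene Ttr alone occurred in 4 members of WT, 0 of EKO, 26 of P301S and 1 of P301S/EKO. At least 3 UMIs of oligodendrocyte markers occurred in 19, 5, 27 and 14. The cut of 3 UMIs was not scaled to depth, and the median member was deepest in P301S. The part of depth and of stray transcripts in the number of mixed members was not tested. Shares and counts of genes are given with and without mixed members. Most genes with an interval beyond 1.5-fold had fewer than 20 UMIs once mixed members were left out and could not be compared.

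Members fell into a Vip arm of 139 nuclei with a Vip UMI and a Cnr1 arm of 93 nuclei that entered by Cnr1 alone. The Vip arm held 33 nuclei in WT and 32 in EKO, and 42 in P301S and 32 in P301S/EKO, and the Cnr1 arm 29, 23, 22 and 19. Only 22 nuclei passed both thresholds. In the Vip arm the median nucleus held 8 Vip UMIs in WT and 5 in EKO, and 3.5 in P301S and 4.5 in P301S/EKO, and the highest held 38. In the Cnr1 arm the median nucleus held 5 Cnr1 UMIs in WT and 4 in EKO, and 4.5 in P301S and 4 in P301S/EKO, and the highest held 14.

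**Figure D1:**
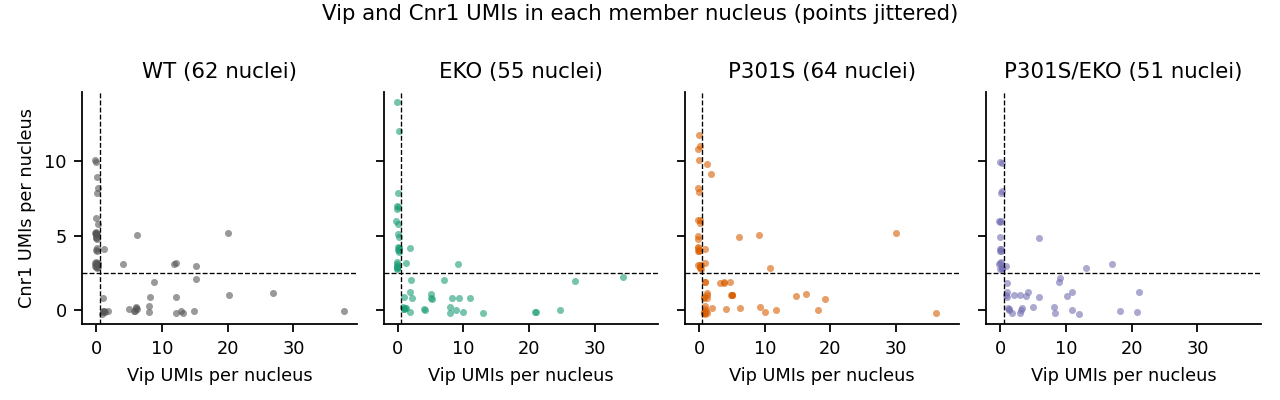
Vip UMIs (x axis) and Cnr1 UMIs (y axis) in each member nucleus, 1 panel per library, with points jittered and dashed lines at the thresholds of the rule. Most nuclei lie along one axis or the other, and 22 of 232 lie beyond both lines.

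Nuclei just inside the Vip threshold held less of the peptide gene Penk than nuclei with more Vip UMIs. The 34 members with 1 Vip UMI and under 3 Cnr1 UMIs, 6 from WT, 6 from EKO, 15 from P301S and 7 from P301S/EKO, together held 27.6 CPM (counts per 1000000 UMIs) of Adarb2, an RNA-editing family gene that marks interneurons of caudal origin, and 36.8 CPM of Lhx6, the transcription factor of medial origin. The 83 nuclei with 2 or more Vip UMIs and under 3 Cnr1 UMIs held 81.3 CPM of Adarb2, no Lhx6 UMI and 562 CPM of the enkephalin gene Penk, against 55.1 CPM of Penk with 1 Vip UMI. The 818 GABAergic nuclei just outside, with no Vip and under 2 Cnr1 UMIs, held 23.02 CPM of Adarb2 and 37.0 CPM of Lhx6, near the values with a single Vip UMI. The 34 and 83 nuclei held only 108831 and 147615 UMIs of all genes. Their Adarb2 and Lhx6 levels therefore rest on few UMIs, and no interval was computed, so these 2 genes do not separate the groups. At the Cnr1 threshold, 30 nuclei with 3 Cnr1 UMIs and no Vip held 122.5 CPM of Adarb2 and 597 CPM of Cck, and 31 nuclei with 2 Cnr1 UMIs held 58.8 and 365 CPM. At the GABAergic threshold, 88 members had a sum of 2 UMIs and 132 nuclei stood outside with a sum of 1, with 100.2 and 76.5 CPM of Adarb2.

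A Vip UMI also occurred in nuclei that should lack the gene. Among nuclei with Slc17a7, the vesicular glutamate transporter, and no GABAergic UMI, 2.22% held a Vip UMI in WT and 1.64% in EKO, and 6.37% in P301S and 0.594% in P301S/EKO, at median depths of 2686, 2418, 2919 and 2182 UMIs. Among all GABAergic nuclei the shares were 7.74%, 7.41%, 12.8% and 9.85%, at median depths of 2367, 1686.5, 2450 and 1739 UMIs. P301S had the highest share in both classes and held 15 of the 34 single-UMI members. Nuclei were then thinned to 1000 UMIs, which left out those with fewer: 129 kept nuclei of WT, 1060 of EKO, 0 of P301S and 1247 of P301S/EKO, among them 1, 11, 0 and 12 members. The thinned GABAergic shares were 7.24% of 221 nuclei, 5.11% of 235, 9.05% of 210 and 6.81% of 191. Those of the Slc17a7 nuclei rested on 2 of 127 nuclei (1.58%, 0.191% to 5.57%) in WT, 1 of 121 (0.826%, 0.0209% to 4.52%) in EKO, 1 of 60 (1.67%, 0.0422% to 8.94%) in P301S and 1 of 84 (1.19%, 0.0301% to 6.46%) in P301S/EKO, too few to order the libraries.

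Members made up a like share of GABAergic nuclei in every library. In WT the share was 62 of 517 nuclei (11.99%, Clopper-Pearson 95% interval 9.32% to 15.1%). The share of EKO was 12.7% (55 nuclei, 9.74% to 16.2%), that of P301S 13.5% (64 nuclei, 10.5% to 16.9%) and that of P301S/EKO 13.2% (51 nuclei, 10.00% to 17.0%). All 4 intervals overlapped. Thinned to 1000 UMIs the shares were 9.50%, 10.2%, 11.4% and 7.33%, and the intervals again overlapped. Of all kept nuclei, members were 1.13% in WT and 1.01% in EKO, and 2.18% in P301S and 0.915% in P301S/EKO, and the interval of P301S (1.68% to 2.78%) lay above those of the other 3 libraries. GABAergic nuclei as a whole were 16.2% of kept nuclei in P301S and 6.92% to 9.39% in the others, while the members' share of GABAergic nuclei was 13.5% there and 11.99% to 13.2% in the others. Thinned, the members' shares of kept nuclei were 0.391%, 0.545%, 0.818% and 0.323%, and the interval of P301S (0.525% to 1.21%) overlapped those of WT, EKO and P301S/EKO. Without the members that held a single Vip UMI and under 3 Cnr1 UMIs, the GABAergic share was 10.8% in WT and 11.3% in EKO, and 10.3% in P301S and 11.4% in P301S/EKO. Without mixed members it was 6.38% in WT and 10.2% in EKO, and 3.58% in P301S and 7.77% in P301S/EKO, and the share of kept nuclei was 0.600%, 0.806%, 0.579% and 0.538%, so P301S no longer stood highest.

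**Figure D2:**
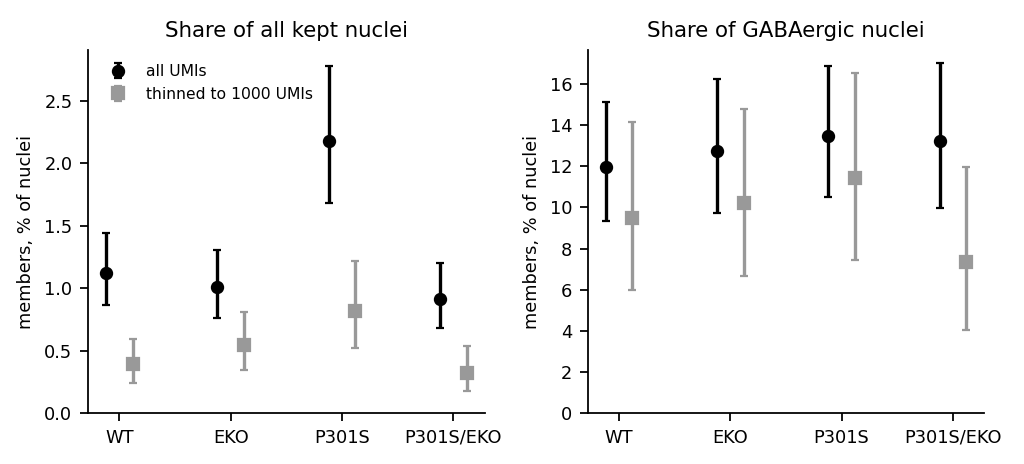
Members as a percentage of all kept nuclei (left) and of GABAergic nuclei (right) in each library, with all UMIs (circles) and thinned to 1000 UMIs (squares). Bars are exact 95% binomial intervals; P301S stands highest on the left with all UMIs, while on the right the 4 libraries lie between 11.99% and 13.5%.

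The label was checked with markers that the rule did not count. Adarb2 stood at 108 CPM in members of WT and 118 in EKO, and 115 in P301S and 123 in P301S/EKO, against 21.1, 26.3, 36.4 and 19.1 CPM in the other GABAergic nuclei of the same libraries. An Lhx6 UMI was found in 1 of 62, 0 of 55, 2 of 64 and 1 of 51 members. The exact interval for 0 of 55 in EKO reached 6.49%. An Adarb2 UMI was found in 16 of 62, 11 of 55, 19 of 64 and 6 of 51 in the same order. Most members held no Adarb2 UMI either, so few members with Lhx6 is weak evidence for the label. No such share is given here for the other GABAergic nuclei. The 12 genes of the caudal-origin list summed to 1573 to 1788 CPM in members and 717 to 937 CPM in the other GABAergic nuclei, while the 13 genes of the medial-origin list summed to 1051, 1327, 1108 and 1083 CPM in members of WT, EKO, P301S and P301S/EKO and to 1064, 1742, 1295 and 1363 CPM in the others. Adarb2 and the caudal-origin list were higher in members as a group in every library. The medial-origin list stood nearly level in WT. The 34 members with a single Vip UMI had Adarb2 and Lhx6 levels near those outside the rule, but on few UMIs, as given above. Vip and Cnr1 themselves were used by the rule and check nothing.

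Beside the other GABAergic nuclei, and as a description because the rule chose the nuclei in this contrast, 40 of 5758 genes were at least 1.5-fold higher in members in every library and 56 lower. The highest 10 by the median over libraries were the rule's own Vip and Cnr1, the synaptic organiser Cbln2, the tachykinin gene Tac2, the serotonin receptor Htr3a, Penk, the G-protein regulator Rgs12, the chemokine Cxcl14, the adrenergic receptor Adra1b and Adarb2. Cbln2 stood at 140, 187, 105 and 214.5 CPM in members of WT, EKO, P301S and P301S/EKO, against 11.2, 13.1, 17.5 and 5.46 CPM in the other GABAergic nuclei. Htr3a stood at 95.5, 256, 177 and 296 CPM in members and at 16.2, 42.0, 15.4 and 36.9 CPM in the others. Cxcl14 stood at 376, 472, 310.5 and 460 CPM in members and at 54.1, 56.5, 67.2 and 96.9 CPM in the others. For these genes no library of members overlapped any library of the others. The lowest 10 were Pvalb, Smc2, Crhbp, Syt2, Sst, Rbp4, Tac1, Lamp5, Nxph1 and Gprc5b, of which Pvalb, Sst and Lamp5 were left out by the rule. Nxph1, a ligand of neurexins, stood at 44.6, 39.3, 23.9 and 20.4 CPM in members and at 152, 211, 177 and 169 CPM in the others.

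The nuclei left out by the Lamp5 threshold were the nearest to members in several of these genes. Summed over libraries, Cnr1 stood at 1147 CPM in members, 595 CPM in the 286 nuclei of the Lamp5 class, 79.9 CPM in the 268 nuclei of the Sst class and 72.3 CPM in the 147 nuclei of the Pvalb class. Cxcl14 stood at 383, 151.5, 20.3 and 17.6 CPM in the same order, and Adarb2 at 115, 60.6, 6.77 and 1.96 CPM. Vip, absent from EKO nuclei of the Lamp5 class, stood at 133, 213 and 222 CPM in that class in WT, P301S and P301S/EKO. The 25 GABAergic nuclei that met every condition except for a Lamp5-group sum of 2 held 1324 CPM of Cnr1 and 882.5 CPM of Cck, and the 52 members with a sum of 1 held 1496 and 1149.5 CPM. Nuclei on both sides of that threshold had to pass the Vip or Cnr1 condition, so their Cnr1 levels were shaped by the rule. Cck was not counted by the rule, but no interval was computed for it here.

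The Vip and Cnr1 arms held different peptide genes. Because the arms were cut by Vip and Cnr1, the following folds, over all libraries summed (314803 UMIs in the Vip arm and 251200 in the Cnr1 arm), are descriptions. Of 4877 genes with at least 20 UMIs, 71 had an interval wholly beyond 1.5-fold toward the Vip arm and 24 toward the Cnr1 arm. Of 442 genes with at least 20 UMIs over both arms in every library, 11 were at least 1.5-fold higher in the Vip arm in all 4 libraries and 10 lower. Glial sums also differed between the arms in single libraries: the microglial list stood at 2216 CPM in the Vip arm of P301S and 422 CPM in its Cnr1 arm, and the astrocyte list at 2825 and 360 CPM in P301S/EKO; their part in the counts was not tested. Penk was 37.9-fold higher in the Vip arm (interval 10.2 to 317.5), with 296, 484, 172 and 474 CPM there in WT, EKO, P301S and P301S/EKO and at most 1 UMI per library in the Cnr1 arm. Tac2 was 10.1-fold higher (4.43 to 28.4), the calcium buffer Calb2 9.58-fold (3.02 to 48.6), and the corticotropin-releasing hormone gene Crh 11.6-fold (2.93 to 100.1), but 17 of its 29 UMIs in the Vip arm came from P301S, which had 10 in 1 nucleus. Prox1, a transcription factor of caudal-origin interneurons, was 5.85-fold higher (1.76 to 30.5) and Cbln2 4.36-fold (2.39 to 8.58).

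In the Cnr1 arm the neuropeptide Y gene Npy was 10.9-fold higher (5.85 to 22.6), with 303, 403, 343 and 550 CPM in WT, EKO, P301S and P301S/EKO against 12.4, 141, 7.49 and 39.5 CPM in the Vip arm. Yjefn3 was 8.44-fold higher (4.88 to 15.6). The collagen gene Col19a1 was 7.99-fold higher (6.39 to 10.1), with 3013, 2800, 1082 and 2601 CPM in the Cnr1 arm and 481.5, 100.8, 262 and 237 CPM in the Vip arm. Cadps2, which primes dense-core vesicles, was 5.31-fold higher (3.27 to 9.00), Col25a1 4.98-fold (3.41 to 7.43), Reln, which encodes the secreted protein reelin, 4.32-fold (2.01 to 10.3), the adhesion gene Ntng1 3.56-fold (2.89 to 4.42) and Rgs12 3.21-fold (2.31 to 4.51). Cck itself was 1.68-fold higher in the Cnr1 arm (1.40 to 2.03), so its interval did not clear 1.5-fold. Its level in the Cnr1 arm was 829, 1554, 977 and 1015 CPM, and in the Vip arm 679, 363, 846 and 237 CPM. A nucleus of the Cnr1 arm held a median of 1, 4, 1 and 2 Cck UMIs in WT, EKO, P301S and P301S/EKO. Of the Vip arm nuclei with under 3 Cnr1 UMIs, 18 of 26, 26 of 29, 19 of 34 and 26 of 28 held none. Htr3a (1.10-fold higher in the Vip arm, 0.737 to 1.65) and Slc32a1 (1.05-fold higher in the Cnr1 arm, 0.867 to 1.26) stood near 1, with intervals that reach at most 1.65-fold. Col25a1, Reln and Ntng1 were chosen after their values were seen.

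**Figure D3:**
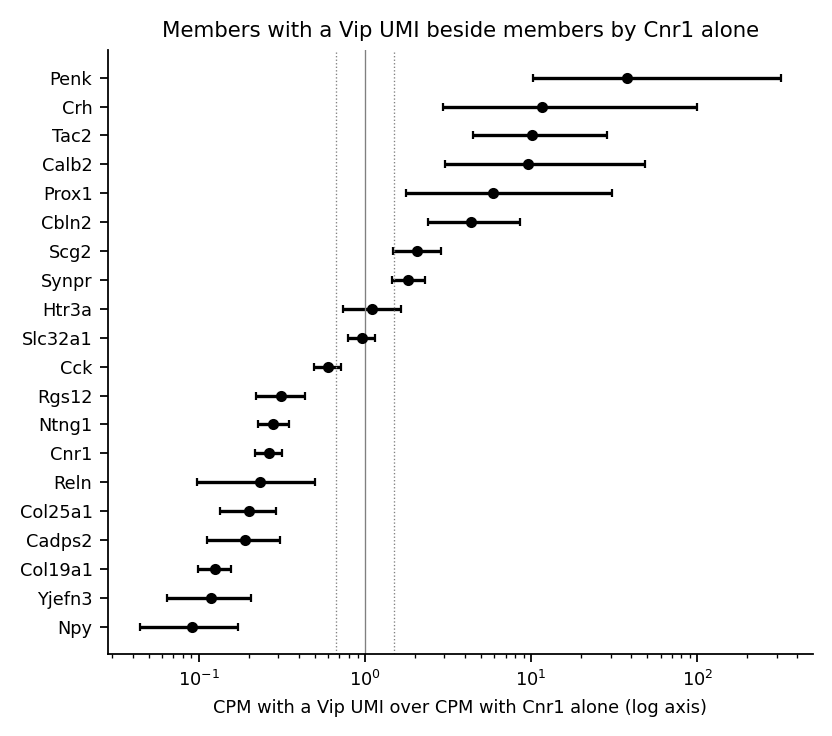
Ratio of CPM in members with a Vip UMI to CPM in members that entered by Cnr1 alone (log axis), libraries summed, with exact 95% intervals; dotted lines mark 1.5-fold. Penk, Crh, Tac2, Calb2, Prox1 and Cbln2 lie to the right of the lines and 9 genes from Rgs12 to Npy to the left, while Scg2, Synpr, Htr3a, Slc32a1 and Cck cross a line or lie between them.

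The genes of the rule were compared between libraries as descriptions only. Vip stood at 1981 CPM in members of WT and 2556 in EKO, and 1237 in P301S and 2217 in P301S/EKO. Cnr1 stood at 1140, 1465, 927 and 1297 CPM, and Slc32a1 at 815, 1189, 511 and 1032 CPM. For all 3 genes EKO was highest and P301S lowest. The direction for Vip and Cnr1 depended on which members were counted: the log2 ratio of Vip in P301S over WT was -0.68 with all members and 0.27 without mixed members, and in P301S/EKO over P301S 0.84 and -0.40. That of Cnr1 in P301S over WT was -0.30 with all members and 0.09 without single-Vip members. The median depth of a member ran in the opposite order, with EKO lowest and P301S highest, and a threshold in UMIs asks for a larger CPM in a shallower nucleus; its part in these levels was not tested. In the Vip arm, 18 of 42 nuclei of P301S held a single Vip UMI, against 7 of 33 in WT, 7 of 32 in EKO and 8 of 32 in P301S/EKO. Gad1 stood at 369, 383, 300.9 and 368 CPM and Gad2 at 293, 285, 215 and 133 CPM. Slc32a1 had an interval beyond 1.5-fold in P301S/EKO over P301S (2.02-fold higher, 1.52 to 2.67). In the other GABAergic nuclei it stood 1.62-fold higher (1.45 to 1.81), but the same sum with Slc32a1 chose them, so they are no separate check. The median depth in P301S/EKO and P301S was 1770 and 2722.5 UMIs in members and 1737 and 2448 in the other GABAergic nuclei. The part of depth in these ratios was not tested. The log2 ratio of Slc32a1 in members was 1.01 with all of them and 1.39 in the Vip arm. The interval no longer cleared 1.5-fold in 5 alternatives: doublets removed (0.99), stricter thresholds (0.95), without mixed members (0.93), without single-Vip members (0.92) and the Cnr1 arm (0.47).

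**Figure D4:**
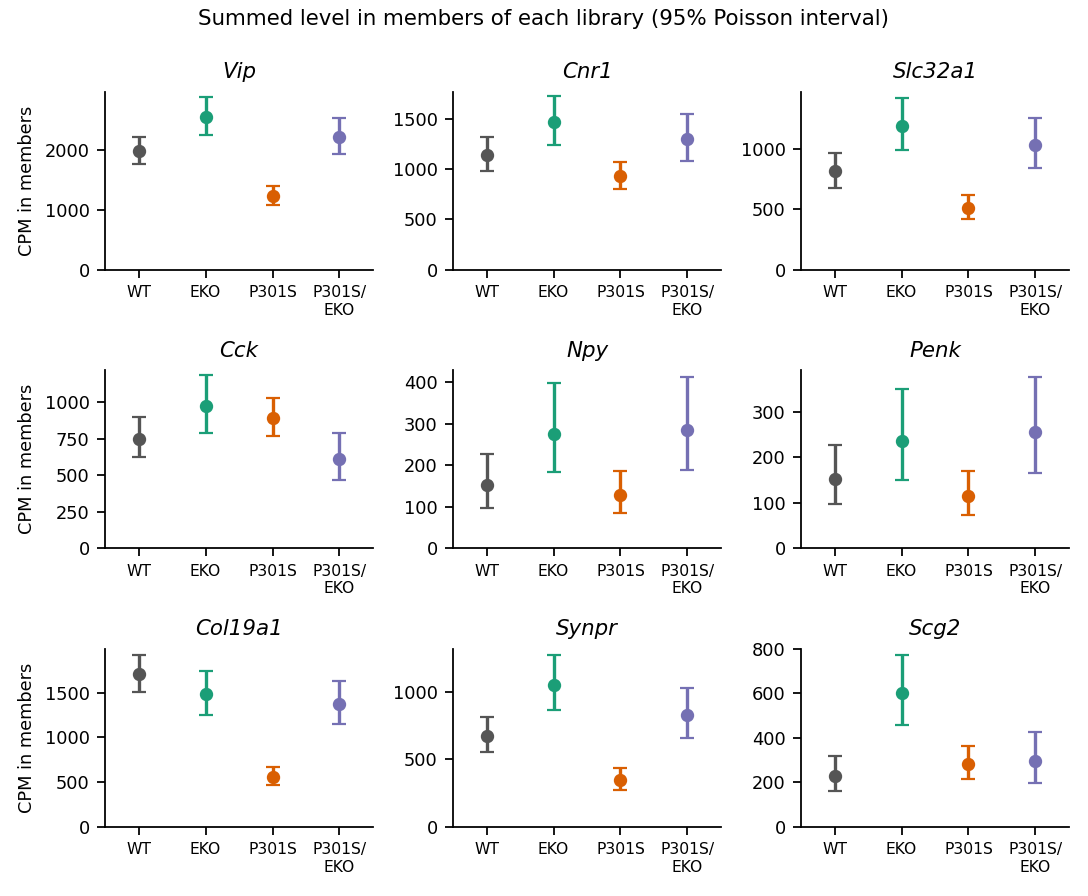
Level of 9 genes in members of each library, as CPM with exact 95% Poisson intervals. Vip, Cnr1 and Slc32a1 are lowest in P301S; Col19a1 stands at 559 CPM in P301S and at 1379 CPM or more in the other libraries; Scg2 stands at 600 CPM in EKO and at most 296 in the others.

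In P301S over WT, 24 of 3314 genes with at least 20 UMIs had an interval beyond 1.5-fold on the higher side (0.724%) and 7 on the lower (0.211%). Without mixed members 8 genes were higher and 4 lower. Of the 24, only Apoe, Rnf121, Ctsd and Gm26917 still had such an interval, 3 did not and 17 had too few UMIs; of the 7, none had one, 4 could be compared and 3 had too few UMIs. The 6 highest each had at most 6 UMIs in WT. They were the complement genes C1qc (20.2-fold, 5.34 to 171.5) and C1qa (11.9-fold, 5.26 to 33.2), the microglial receptor Trem2 (18-fold, 2.94 to 740), the channel Trpv2 (14.3-fold, 2.27 to 592) and the antigen presentation gene Cd74, which had 0 UMIs in WT and 24 in P301S, and Gfap. Gfap, the filament protein of astrocytes, was 17.2-fold higher (5.66 to 85.7), with 3 UMIs in WT and 69 in P301S spread over 34 nuclei. The lower genes included Col19a1 (1707 CPM in WT and 559 in P301S, 3.05-fold lower, 2.45 to 3.83), C1ql3, a secreted synaptic organiser of granule cells (147 and 19.1 CPM, 7.67-fold lower, 2.62 to 30.5), the respiratory chain genes Ndufa1 (108 and 23.9 CPM, 4.53-fold, 1.61 to 15.7) and Cox6a1 (408 and 153 CPM, 2.67-fold, 1.72 to 4.21), Marc2 (140 and 33.4 CPM, 4.19-fold, 1.73 to 11.6) and Ssbp4 (369 and 153 CPM, 2.42-fold, 1.54 to 3.85). Auts2, a regulator of neuronal chromatin chosen after its values were seen, was 2.31-fold lower (1.60 to 3.36).

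Col19a1 had the most counts among the lower genes. It was found in 34 of 62 members of WT, 21 of 55 of EKO, 28 of 64 of P301S and 20 of 51 of P301S/EKO, with at most 20, 20, 27 and 27 UMIs in 1 nucleus. In the other GABAergic nuclei it stood at 457 CPM in WT and 743 in EKO, and 405 in P301S and 507 in P301S/EKO, a P301S to WT difference of 1.13-fold (1.01 to 1.27). Within the Cnr1 arm alone the log2 ratio of Col19a1 in P301S over WT was -1.47, and within the Vip arm -0.87 with an interval that did not clear 1.5-fold. With the nucleus holding most Col19a1 left out of each library the log2 ratio was -1.87, against -1.61 with all members. Without mixed members it was -0.95 and the interval did not clear 1.5-fold. C1ql3 was lower in P301S in the other GABAergic nuclei too (3.27-fold, 2.61 to 4.13) and in Slc17a7 nuclei (2.06-fold, 1.70 to 2.51), the class that makes it. Auts2 was lower in P301S in the other GABAergic nuclei (1.69-fold, 1.48 to 1.93) and in Slc17a7 nuclei (1.5-fold, 1.31 to 1.73). The ratio of Col19a1 was larger in members than in the other GABAergic nuclei, and their intervals did not overlap; for Auts2 and C1ql3 the direction was shared by all 3 classes. Markers of dentate granule neurons, which are not among those that define mixed members, were also lower in P301S than in WT in all 3 classes: the 8 genes summed to 331 CPM in members of WT and 364 in EKO, and 100.3 in P301S and 245 in P301S/EKO, to 509, 340, 204 and 333 CPM in the other GABAergic nuclei and to 563, 648, 232.5 and 483 CPM in Slc17a7 nuclei. C1ql3 is itself 1 of these 8 genes, and the only 1 with at least 20 UMIs in members in P301S over WT. The sum is therefore no separate observation of C1ql3. The part of granule neuron transcripts in the levels of C1ql3, Auts2 and Synpr was not tested. The log2 ratio of Cox6a1 stayed between -2.07 and -1.28 under every alternative, but its interval no longer cleared 1.5-fold without mixed members (-1.55) or within either arm.

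P301S/EKO over P301S gave the largest number of genes on the lower side: 27 of 2691 (1.00%), with 14 higher (0.520%). Slc32a1, a gene of the rule, is among the 14 higher. Without mixed members 10 were lower and 2 higher. Of the 27, Apoe, Rnf121, Gm26917 and Eif2s3y still had such an interval, 4 did not and 19 had too few UMIs; of the 14, mt-Co3 still had one, 8 did not and 5 had too few UMIs. Apoe fell from 1070 UMIs (5111 CPM) to 1 UMI (ratio 0.00200, 5.06e-05 to 0.0112). Among the lowest genes were C1qa (14.8-fold lower, 4.92 to 73.1), Cd74 (11.2-fold, 1.83 to 461.5), Trem2 (11.2-fold, 1.83 to 461.5), the myelin gene Cldn11 (11.7-fold, 1.91 to 480.0), and Pkd1, with 23 UMIs over 19 nuclei in P301S and 0 in P301S/EKO. The higher genes included Gm15594 (5.61-fold, 2.39 to 14.7), the interneuron homeobox gene Dlx6 (4.28-fold, 1.73 to 11.5), Prune2 (3.80-fold, 1.58 to 9.76), Eif4g2 (3.694-fold, 1.67 to 8.59), the adhesion gene Alcam (3.30-fold, 1.88 to 5.93) and the histone methyltransferase Kmt2d (2.76-fold, 1.57 to 4.92). Col19a1 was 2.47-fold higher (1.91 to 3.19), with a log2 ratio of 1.26 in the Cnr1 arm and -0.14 in the Vip arm. Synpr, which encodes a synaptic vesicle protein, stood at 675 CPM in WT and 1052 in EKO, and 344 in P301S and 827 in P301S/EKO. Synpr was 2.41-fold higher in P301S/EKO than in P301S (1.73 to 3.35). Its log2 ratio was 1.26 with all members and -0.04 without mixed members, and in P301S over WT -0.97 and 0.17. In Slc17a7 nuclei Synpr was 3.22-fold higher in the same comparison (2.17 to 4.88), and in the other GABAergic nuclei 1.31-fold (1.06 to 1.60).

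In EKO over WT, 4 of 2243 genes were higher (0.178%) and 8 lower (0.357%). Without mixed members 4 were higher, with Scg2 and Socs2 in both counts, and 5 lower, with Apoe in both. The higher genes were Gps2 (44.6 CPM in WT and 177 in EKO, 3.97-fold, 1.58 to 11.2), the cytokine-signalling inhibitor Socs2 (82.8 and 256 CPM, 3.09-fold, 1.53 to 6.54), the glutamine transporter Slc38a1, which supplies the precursor of GABA (102 and 295 CPM, 2.89-fold, 1.53 to 5.68), and the secretogranin Scg2, a core protein of peptide vesicles (229 and 600 CPM, 2.61-fold, 1.70 to 4.06). In EKO 1 nucleus held 19 of the 61 Scg2 UMIs, and with the nucleus holding most left out of each library the log2 ratio of Scg2 was 0.97 in place of 1.37 and its interval did not clear 1.5-fold. In the other GABAergic nuclei Scg2 was 1.74-fold higher (1.5 to 2.01) and Slc38a1 1.61-fold (1.24 to 2.07). The log2 ratio of Socs2 lay between 1.45 and 1.99 and that of Slc38a1 between 1.33 and 1.81 under the alternatives, and each interval failed to clear 1.5-fold in 4 of them. The lower genes were led by Apoe (161 and 2 UMIs, ratio 0.0192, 0.00230 to 0.0704), Rnf121 (29.2-fold lower, 4.97 to 1177), the metallothionein Mt3 (13.6-fold, 2.19 to 563), the choroid plexus gene Ttr (9.94-fold, 3.19 to 49.9), Ncaph2 and the bicarbonate transporter Slc4a10 (6.48-fold, 1.57 to 57.2).

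In P301S/EKO over EKO, 14 of 1581 genes were higher (0.886%) and 2 lower (0.127%). Without mixed members 3 were higher and 3 lower; of the 14, Fry and Mbp still had such an interval, 5 did not and 7 had too few UMIs, and of the 2 neither had one. Gfap was 37.4-fold higher (6.30 to 1518), Rnf121 22.9-fold (3.70 to 944), Mt2 8.31-fold (2.95 to 32.4), Gm15594 7.28-fold (2.17 to 38.1), Mt1 6.75-fold (3.45 to 14.8) and Ttr 6.58-fold (1.94 to 34.7). In P301S/EKO the nucleus highest in Gfap held 21 of 36 UMIs of that gene, the nucleus highest in Mt1 held 42 of 65 and the nucleus highest in Mt2 held 28 of 32. With the nucleus holding most left out of each library the log2 ratio of Mt1 was 1.57 in place of 2.70 and that of Mt2 0.94 in place of 2.9045; neither interval then cleared 1.5-fold. The lower genes were Bod1l (5.05-fold, 1.71 to 20.2) and the respiratory chain gene Cyc1 (3.18-fold, 1.53 to 7.22). Kmt2d, chosen after its values were seen, was 4.602-fold higher (1.99 to 12.4), and in the other GABAergic nuclei its ratio was 1.04 (0.819 to 1.32).

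The comparisons of P301S with WT and of P301S/EKO with EKO share no library. Among 1560 genes with at least 20 UMIs in both, 3 had an interval wholly above a 25% increase in each, Gfap, Rnf121 and Ttr, and 0 had one wholly below a 20% decrease. EKO over WT and P301S/EKO over P301S also share no library, and among 2026 genes 0 were higher in both by that measure and 6 lower in both, among them Apoe, Rnf121, Ttr, Ptgds and Gm26917. Ttr is known from the choroid plexus and Ptgds from oligodendrocytes and the meninges. Rnf121 stood at 287, 9.83, 888 and 225 CPM in members of WT, EKO, P301S and P301S/EKO and at 425, 35.5, 845 and 325 CPM in the other GABAergic nuclei. Prnp, whose promoter drives tau in a widely used P301S line, stood at 210 CPM in WT and 423 in EKO, and 416 in P301S and 490 in P301S/EKO members, so EKO, which has no transgene by its label, stood as high as P301S. In the other GABAergic nuclei Prnp stood at 318, 311, 497 and 554 CPM, higher in both libraries with the transgene. The mouse tau gene Mapt stood at 178, 108, 325 and 133 CPM in members; reads of a human transgene may or may not be counted under it, which the sources used here do not say.

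The sums of microglial, astrocyte, oligodendrocyte and choroid plexus markers were higher in P301S than in WT in members and in both other classes of neurons, but their other differences were not all shared. The 10 microglial markers summed to 166 CPM in members of WT and 324 in EKO, and 1567 in P301S and 255 in P301S/EKO, to 721, 246, 2267 and 952 CPM in the other GABAergic nuclei, and to 434, 407, 1139 and 789 CPM in Slc17a7 nuclei. P301S was highest in all 3 classes. From WT to EKO the microglial sum was higher in members and lower in the other GABAergic nuclei, and from WT to P301S/EKO it was higher in all 3. The choroid plexus list summed to 522, 226, 1137 and 317 CPM in members, and the oligodendrocyte list to 1287, 609, 1806 and 1154 CPM, again highest in P301S and lowest in EKO. Astrocyte markers summed to 637, 462, 1065 and 1634 CPM in members and to 684, 328, 1038 and 643 CPM in the other GABAergic nuclei. From P301S to P301S/EKO their sum was higher in members and lower in the others. Within members it went from 1228 to 2825 CPM in the Vip arm and from 779 to 360 CPM in the Cnr1 arm. The log2 ratio of Gfap in that comparison was 0.16, and -0.95 with the nucleus holding most left out of each library. Apoe stood at 1025, 19.7, 5111 and 10.2 CPM in members and at 1464, 10.5, 7566 and 12.3 CPM in the other GABAergic nuclei. Whether any of these genes was made in the members was not tested.

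**Figure D5:**
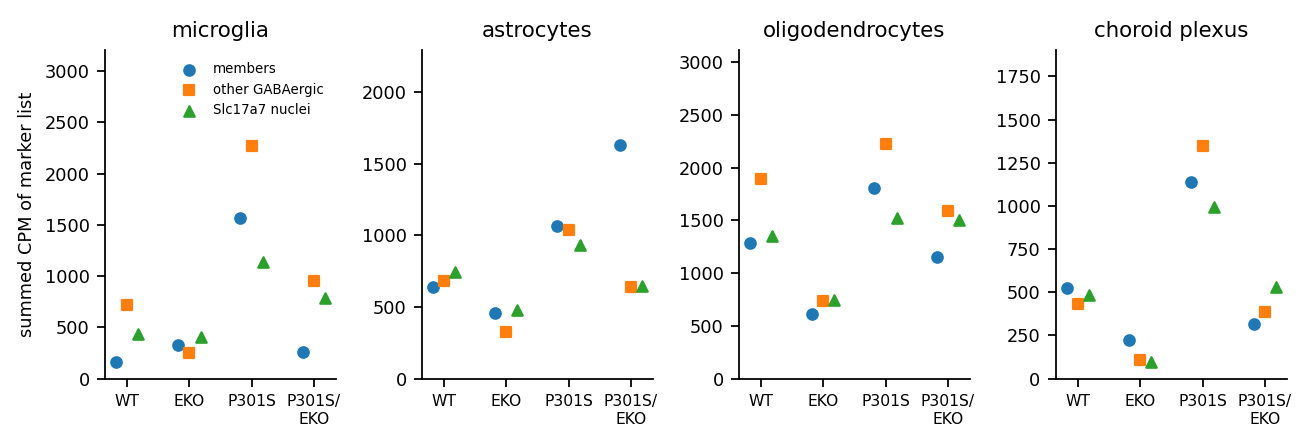
Summed CPM of the marker lists of microglia, astrocytes, oligodendrocytes and choroid plexus in members (circles), other GABAergic nuclei (squares) and Slc17a7 nuclei without GABAergic UMIs (triangles) of each library. Microglial and choroid plexus sums are highest in P301S in every class. The astrocyte sum of members is highest in P301S/EKO at 1634 CPM, with 2825 CPM in the Vip arm and 360 CPM in the Cnr1 arm.

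The gene lists were read against all genes by the share at least 1.5-fold higher or lower. In P301S over WT these shares were 12.8% higher and 14.2% lower over all 3314 genes, in P301S/EKO over P301S 13.9% and 19.3%, in EKO over WT 15.7% and 17.1%, and in P301S/EKO over EKO 12.8% and 18.7%. The median log2 ratio over all genes was -0.04, -0.02, 0.04 and -0.13 in the same order.

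The genes of the rule are left out of the list counts that follow. Of the 23 other genes for neuropeptides and their processing, 14 could be compared in P301S over WT, where 0 were higher and 1, Tac2, was lower (median log2 -0.15). In EKO over WT 6 of 14 were higher and 1 lower (median 0.32), and in P301S/EKO over EKO 0 of 14 were higher and 5 lower (median -0.39). The 6 higher in EKO were Scg2, the chromogranin Chga (147 and 305 CPM), Npy (153 and 275 CPM), Vgf (357 and 580 CPM), Scg5 (338 and 531 CPM) and Penk (153 and 236 CPM); of these only the interval of Scg2 lay beyond 1.5-fold. Cck stood at 752, 973, 893 and 613 CPM in members of WT, EKO, P301S and P301S/EKO, and none of its ratios had an interval beyond 1.5-fold. Npy was 2.22-fold higher in P301S/EKO than in P301S (1.26 to 3.91) and Penk 2.23-fold (1.22 to 4.07), both short of the 1.5-fold bound. The direction for Penk depended on which members were counted. Its log2 ratio in that comparison was 1.13 with all members and -0.64 without mixed members, and in P301S over WT -0.41 and 1.23. Pcsk2, a convertase that cuts peptide precursors, stood at 828, 924, 779 and 674 CPM, and Pcsk1n within 827 to 1091 CPM.

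Of the 17 genes of the endocannabinoid system other than Cnr1, 8 could be compared in P301S over WT and 0 were 1.5-fold higher or lower (median log2 0.19). In P301S/EKO over P301S 1 of 7 was higher and 1 lower (median -0.07, and 0.16 with Cnr1), in EKO over WT 1 of 5 was higher (median 0.16), and in P301S/EKO over EKO 1 of 5 was lower (median -0.10). None had an interval beyond 1.5-fold. Cnrip1, which binds the tail of the receptor, stood at 229, 187, 258 and 174 CPM in members of WT, EKO, P301S and P301S/EKO. Faah, the enzyme that breaks down anandamide, stood at 102, 187, 138.5 and 184 CPM. Abhd12, a hydrolase of the endocannabinoid 2-AG, stood at 140, 157, 162 and 153 CPM, and Plcb1, upstream of its synthesis, at 134, 138, 124 and 61.3 CPM. Cnr1 is a gene of the rule, so its interval in P301S over WT (0.660 to 1.00) sets no limit on a change of the receptor gene. The direction of that ratio also depended on which members were counted, as given above. Dagla and Mgll had too few UMIs to compare.

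Of the 16 genes of the Cck basket list, 6 of 8 were higher in P301S/EKO over P301S and 0 lower (median log2 0.71), with Col19a1 the only one whose interval lay beyond 1.5-fold. In P301S over WT 1 of 9 was higher and 1 lower (median -0.32). Across the alternatives that P301S over WT median ranged from -0.87 to 0.35. Of the 10 genes of GABA synthesis, transport and breakdown other than Gad1, Gad2 and Slc32a1, 5 of 6 lay within 1.5-fold in P301S over WT, 5 of 6 in P301S/EKO over P301S, 4 of 6 in EKO over WT and 3 of 6 in P301S/EKO over EKO. Of 38 genes of oxidative phosphorylation, 0 of 33 were higher and 9 lower in P301S over WT (median -0.29), among them Ndufa1 and Cox6a1. In EKO over WT 2 of 31 were higher and 10 lower (median -0.32), and in P301S/EKO over P301S 6 of 33 were higher and 4 lower (median 0.27). The 4 genes of the interferon and antigen presentation list that could be compared were all at least 1.5-fold higher in P301S than in WT (median 1.80) and 3 of 4 were lower in P301S/EKO than in P301S (median -1.74), beside the microglial sums above. Of 22 synaptic vesicle genes in P301S over WT 0 were higher and 3 lower, and of 23 voltage-gated channel genes 3 were higher and 1 lower; no gene of either list had an interval beyond 1.5-fold.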

How the data were processed

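The deposited matrices hold UMI counts per gene and barcode, as whole numbers, 1 matrix per library; nuclei were isolated through a sucrose cushion and read from the 3′ end with droplet kits, per the labels' protocols. Cell Ranger, Seurat and the build mm10 are named in the submitters' processing notes, without roles or versions; how reads in introns were treated is likewise not given in the sources used here. Barcodes under 200 genes or over 5% mitochondrial UMIs were dropped; no doublets were removed. Counts were summed over members in each library and divided by their total to give CPM. Ratios needed at least 20 UMIs over both libraries; log2 ratios used a prior of 0.5 UMI. A ratio was counted when its exact 95% interval lay beyond 1.5-fold; the interval script was tested on simulated data. With 1 library per genotype no test was run. Named genes were the genes of the rule, the 10 highest and 10 lowest beside other GABAergic nuclei, the 6 highest and 6 lowest per comparison, up to 8 per direction with intervals wholly 25% higher or 20% lower in both comparisons of a factor, up to 5 per list, any tested member of the peptide, endocannabinoid, origin and type lists, and Apoe, Prnp and Mapt. A few genes are not reported here. Members and lists were chosen with earlier results of these data known. Gene positions are from GENCODE vM21 and promoters from RefSeq. The tools were scanpy 1.11.5, scipy 1.17.1, numpy 2.4.6, pandas 2.3.3 and matplotlib 3.10.9 in Python 3.11.15.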

Additional observations from a re-analysis of the deposited data

Results flagged for a closer look

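A few genes moved in opposite directions under the same change of genotype in the 2 backgrounds. Each background is 1 library per genotype, so these differences were not tested.

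For the presence of the P301S transgene, the log2 ratio of Bod1l was 1.18 in P301S over WT and -2.20 in P301S/EKO over EKO. That of Ctsd, a lysosomal protease, was 1.95 and -1.02, and that of the mitochondrial gene mt-Co3 -0.51 and 0.95.

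For the loss of apoE, the log2 ratio of Slc4a10 was -2.48 in EKO over WT and 1.60 in P301S/EKO over P301S. That of Bod1l was 1.39 and -2.03, and that of mt-Co3 -0.52 and 0.94. Bod1l rested on 12 UMIs in WT and 21 in EKO, and 37 in P301S and 4 in P301S/EKO.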

How the results depend on the processing

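The values rest on 232 nuclei, and their number and depth limit every ratio. No paired analysis was possible because each genotype is 1 library. Leaving out single-Vip members and the top nucleus of each gene were choices made after seeing the data. With equal weight per nucleus there is no interval, so no genes were counted. The cause of the differences below was not tested.

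Members as a share of kept nuclei were 0.763%, 0.641%, 1.23% and 0.574% in WT, EKO, P301S and P301S/EKO with at least 2 Vip or 5 Cnr1 UMIs, and 0.391%, 0.545%, 0.818% and 0.323% after thinning. Without mixed members they were 0.600% in WT, 0.579% in P301S and 0.538% in P301S/EKO, and without single-Vip members 1.67% in P301S. Members left out in these ways stayed in the denominator, here and in the GABAergic shares. Of GABAergic nuclei they were 8.12%, 8.10%, 7.58% and 8.29% with the stricter thresholds, 6.38% in WT, 3.58% in P301S and 7.77% in P301S/EKO without mixed members, 10.3% in P301S without single-Vip members, and 7.33% in P301S/EKO after thinning.

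In P301S over WT, 24 genes higher and 7 lower became 8 and 4 without mixed members, 5 and 2 in the Cnr1 arm, and 47 and 30 with a minimum of 1 UMI; with the stricter thresholds 13 were higher. In P301S/EKO over P301S, 14 higher and 27 lower became 2 and 10 without mixed members, 8 and 15 with the stricter thresholds, 2 and 9 in the Cnr1 arm, and 25 and 42 with 1 UMI; without single-Vip members 12 were lower. In EKO over WT, 4 higher and 8 lower became 1 and 4 in the Cnr1 arm and 21 and 20 with 1 UMI; without mixed members 5 were lower. In P301S/EKO over EKO, 14 higher became 3 without mixed members, 4 with the stricter thresholds and 2 in the Cnr1 arm, and 2 lower became 4 without single-Vip members, 1 in the Vip arm, 4 in the Cnr1 arm, 1 with median-of-ratios scaling and 18 with 1 UMI.

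Of 3549 log2 ratios of named genes recomputed, 190 changed sign. Of these, 2 had an interval beyond 1.5-fold with all members, both in P301S/EKO over P301S: Col19a1 was -0.14 in the Vip arm and Synpr -0.040 without mixed members. Another 82 lost such an interval. Of the others, 101 left their interval, 44 of them with a change of sign, such as Scg2 in P301S/EKO over P301S (0.07, and -1.45 in the Cnr1 arm). Of 864 list medians 62 left their range. Removing the highest doublet scores left 229 members and requiring 500 genes left 227; neither moved a share or a count of genes by more than the limits used.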

Other observations

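Genes of the Y chromosome differed between libraries, while Xist and Tsix, which are read from the X chromosome in females, had 0 UMIs in members of all 4 libraries. Xist and Tsix were each detected in the other GABAergic nuclei and in Slc17a7 nuclei of every library. Members held far fewer UMIs, 97900 to 209355 per library against 732373 to 1427744 in the other GABAergic nuclei. In members, Eif2s3y stood at 471 CPM in WT and 344 in EKO, and 478 in P301S and 184 in P301S/EKO, and in the other GABAergic nuclei at 506, 238, 489 and 280 CPM. Ddx3y stood at 248, 147, 248 and 91.9 CPM in members and at 200, 120, 224 and 101 CPM in the others. Both genes were lower in EKO and P301S/EKO than in WT and P301S in either class, and their part in the comparisons was not tested.

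Receptors for peptides and modulators were sparse in members. Of 35 genes on the list, 4 had at least 20 UMIs in EKO over WT, of which 3 were at least 1.5-fold higher (median log2 1.27), and 5 in P301S/EKO over P301S, of which 3 were higher (median 0.66). Htr3a was 2.68-fold higher in EKO than in WT (1.36 to 5.43), an interval that did not clear 1.5-fold. Of 17 GABA receptor genes, 3 of 5 were higher and 1 lower in EKO over WT, and none had an interval beyond 1.5-fold.

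All 32 GABAergic nuclei with a Vip UMI in EKO were members, against 33 of 40 in WT, 32 of 38 in P301S/EKO and 42 of 61 in P301S. The remaining nuclei were left out by their Sst, Pvalb or Lamp5-group UMIs.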
